A study of Mus musculus with 9 samples.

Results

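Mitochondrial ribosomal protein genes were examined here as a group of 77 genes among the 24015 listed in each of 2 comparison tables from the mouse dentate gyrus. They were taken by name alone, as every symbol made of Mrpl or Mrps, a number and at most 1 trailing letter, so the rule uses no measured value. The dentate gyrus, a hippocampal region whose main cells are granule neurons, was microdissected from adult C57BL/6 mice aged 8 weeks, and total RNA was sequenced from each mouse. The study asked how neuronal activation changes RNA levels and chromatin accessibility in this tissue. The labels name 3 groups of 3 mice each: E1, E4 and E0. The mice of all 3 groups had the same strain, age and tissue label, and no genotype, agent or unit for the number after E is given, so the groups are called by these names. E0 was the group against which the authors set both others.

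The mitochondrial ribosome translates the few proteins encoded in mitochondrial DNA, which are core subunits of the respiratory chain and of ATP synthase. Its RNAs are transcribed inside the organelle, whereas its proteins are encoded in the nucleus, made in the cytosol and imported. Some of these proteins have counterparts in the bacterial ribosome, and others were gained in the mitochondrial lineage. In neurons, respiration supplies much of the ATP used to restore ion gradients after firing.

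The genes lay on 17 chromosomes, with 10 of them on chromosome 11, 8 on chromosome 17 and 7 on chromosome 6. Spread over the genome in this way, they were next compared by their promoters. RefSeq promoter sequences, 250 bases before to 50 bases after the start on mouse build GRCm38.p6, were matched by symbol for 68 of the 77 genes. The 250 upstream bases of 6 members that the results below turn on are printed 5′ to 3′ in the direction of transcription. Capitals mark matches on either strand to 3 motifs known from promoters of nuclear genes for mitochondrial proteins: GCGC, any 2 bases and GCGC again for NRF1, CCGGAAG for the ETS factor GABP, and AAGATGGC for YY1. Mrps26 lies at chr2:130563507-130563756 on the plus strand, Mrpl12 at chr11:120484387-120484636 on the plus strand and Mrpl53 at chr6:83108858-83109107 on the plus strand. Mrpl35 lies at chr6:71823785-71824034 on the minus strand, Mrps12 at chr7:28741822-28742071 on the minus strand and Mrps22 at chr9:98601680-98601929 on the minus strand.
Mrps26: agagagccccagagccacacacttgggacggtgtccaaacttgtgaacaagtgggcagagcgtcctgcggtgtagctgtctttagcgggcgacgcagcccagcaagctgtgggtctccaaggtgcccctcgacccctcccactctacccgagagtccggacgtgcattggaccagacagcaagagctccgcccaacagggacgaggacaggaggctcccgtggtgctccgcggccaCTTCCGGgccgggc
Mrpl12: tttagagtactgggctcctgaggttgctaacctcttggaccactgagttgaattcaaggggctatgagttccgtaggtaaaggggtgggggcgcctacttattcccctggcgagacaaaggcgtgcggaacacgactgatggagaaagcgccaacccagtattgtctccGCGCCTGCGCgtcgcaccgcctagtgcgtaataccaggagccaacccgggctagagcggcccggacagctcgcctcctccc
Mrpl53: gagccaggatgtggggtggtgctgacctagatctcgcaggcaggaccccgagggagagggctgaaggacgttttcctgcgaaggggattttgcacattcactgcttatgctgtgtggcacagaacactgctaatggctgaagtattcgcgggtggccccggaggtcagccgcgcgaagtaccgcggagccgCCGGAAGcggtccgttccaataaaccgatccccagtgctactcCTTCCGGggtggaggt
Mrpl35: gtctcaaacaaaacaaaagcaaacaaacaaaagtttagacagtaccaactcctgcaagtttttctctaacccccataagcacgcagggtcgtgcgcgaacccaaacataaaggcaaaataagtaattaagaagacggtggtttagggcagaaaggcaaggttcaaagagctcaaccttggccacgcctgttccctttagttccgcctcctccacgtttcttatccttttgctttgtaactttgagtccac
Mrps12: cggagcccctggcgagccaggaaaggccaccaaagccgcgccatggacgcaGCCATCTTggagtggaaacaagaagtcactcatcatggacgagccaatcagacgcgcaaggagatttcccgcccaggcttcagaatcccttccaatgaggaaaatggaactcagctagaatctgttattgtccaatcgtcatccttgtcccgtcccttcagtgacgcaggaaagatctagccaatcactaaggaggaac
Mrps22: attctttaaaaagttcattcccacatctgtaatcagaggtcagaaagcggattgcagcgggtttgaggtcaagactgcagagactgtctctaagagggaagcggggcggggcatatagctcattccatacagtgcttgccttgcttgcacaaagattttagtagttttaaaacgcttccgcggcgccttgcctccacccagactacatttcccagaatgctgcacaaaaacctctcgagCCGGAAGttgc

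Mrps26, Mrpl12 and Mrpl53 were among the 6 members with the lowest values in E1, Mrpl35 was the single member raised there, and Mrps12 and Mrps22 had the highest values in E4. In the stretch of Mrps26 the GABP motif begins 14 bases before the start, on the opposite strand. The stretch of Mrps22 holds it 11 bases before the start, and that of Mrpl53 holds it at 59 and at 16 bases. The promoter of Mrpl12 carries the NRF1 motif 81 bases before the start, and that of Mrps12 the YY1 motif 199 bases before it. None of the 3 motifs is in the printed stretch of Mrpl35. The matched promoter sequences also cover bases after the start, and there were further matches outside the printed stretches. With these included, Mrpl35 held the YY1 motif, Mrps12 also the GABP motif and Mrps26 also the NRF1 motif.

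Over the 68 matched genes and the whole 300 bases, the ETS motif CCGGAAG occurred in 25 promoters (36.8%). Of the 11567 matched genes that had an adjusted p in E1, 17.2% held it. The YY1 motif AAGATGGC occurred in 12 (17.6%), against 4.63% of those genes. The NRF1 motif occurred in 14 (20.6%), against 13.6%. At least 1 of the 3 was found for 43 of the 68 (63.2%), against 31.1% of the genes with an adjusted p, and 8 members held more than 1 of them. Median promoter GC content was 58.5% for the members and 60.3% for the genes with an adjusted p. Motifs of activity-regulated factors were rare both in the members and in the genes with an adjusted p. The CRE TGACGTCA was in 2 members (2.94%, against 3.37%) and the AP-1 motif TGANTCA in 3 (4.41%, against 6.46%). The EGR motif GCGTGGGCG was in 0 of the 68, against 1.34%. On so few genes these shares are too close to be read as a difference. The E-box CACGTG was found in 5 members (7.35%, against 11.2%), CCAAT in 27 (39.7%, against 42.4%) and TATAAA in 5 (7.35%, against 9.15%). Motifs were searched on both strands and were allowed to overlap. None of these shares was tested, and a match of letters describes these windows and not binding of a factor.

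All 77 genes had an adjusted p in both of the authors' tables, so none was lost to a filter on low values. The tables hold 1 mean count per gene, a count divided by the library's size factor and averaged over both groups compared, and they hold no value per mouse. Mean counts of the members ran between 32.4 and 255.7 in the authors' deposited table for E1 (median 119.4). The authors' deposited table for E4 had them between 79.8 and 587.5 (median 256.8). The scale of each table differs, so levels are compared within a table. Per kilobase of transcript, Mrpl20 (942 mean counts per kilobase), Mrpl41 (765) and Mrps21 (719) stood highest in the table for E4, and Mrps25 (37.5) and Mrpl47 (43.1) lowest, with a median of 218 over the members. From a gene's mean count and fold change, the mean of each group can be worked back. The deposited fold changes look shrunken toward 0, so worked-back means may lie closer together than the groups' true means, mostly at low counts. All group averages given below for single genes, and the summed means of markers, are worked back in this way. The E0 mean worked back from the table for E4 was 1.86 to 1.95 times that from the table for E1 over the 77 genes, and the size factors of the E0 libraries were 1.89 times as large in the table for E1. Approximate depth was 1941000 to 4757000 reads in genes for E1 libraries and 10024000 to 13554000 for E4 libraries, against 6137000 to 10929000 for E0 libraries. The authors' SE of a member's log2 fold change had a median of 0.21 in E1 and 0.15 in E4.

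In E1, mitochondrial ribosomal protein genes were mostly lower than in E0. At an adjusted p below 0.05 in the authors' deposited table (DESeq2), 26 of the 77 fell (33.8%) and 1 rose, while 15.0% of the 15660 genes with an adjusted p fell, 20.6% rose and 35.5% changed either way. For E1 the authors' deposited table gave the 77 a median log2 fold change of -0.37, against 0.02 for all genes with an adjusted p in it. Of the 77 values, 64 were negative (83.1%). The 26 that fell lay between -1.10 and -0.46 on the log2 scale in the authors' deposited table, with a median of -0.73. The remaining 50 genes did not pass the test, and their absolute log2 fold changes reached 0.62, that of Mrpl22 with an SE of 0.29 in the authors' deposited table. Granule neuron markers were also lower in E1: all 5 (Prox1, Calb1, Dsp, C1ql2 and Lct) fell in the authors' deposited table. Their summed mean was 3862 counts in E1 and 7586 counts in E0. In E4 2 of these markers rose and 3 fell in the authors' deposited table, with a median of -0.78, against 0.05 for the members. In bulk tissue fewer cells of a type and less RNA per cell cannot be told apart, and the part of the markers in the members' values was not tested.

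Of the 3 lowest values among large-subunit proteins, 2 belonged to the stalk, the flexible arm that in ribosomes recruits translation factors. Mrpl12, the stalk protein itself, had worked-back means of 130.9 counts in E1 and 268.4 counts in E0. Its log2 fold change was -1.04 ± 0.18 in the authors' deposited table (SE, 3 mice a group, adjusted p = 7.5e-08). Mrpl53, a mitochondria-specific protein at the base of the stalk, averaged 62.3 counts in E1 and 128.9 counts in E0. It fell by 1.05 ± 0.23 on the log2 scale in the authors' deposited table (adjusted p = 3.7e-05). Mrpl11, the counterpart of bacterial L11 beside the stalk, fell by 0.63 ± 0.17 in the authors' deposited table (adjusted p = 0.0011). Mrpl10, which anchors the stalk, had -0.33 ± 0.16 in the authors' deposited table and did not pass (adjusted p = 0.088). Of these 4 stalk proteins 3 fell in E1, against 33.8% of all members. The 4 were grouped after their values had been seen, so this count is no test of the stalk.

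Around the exit of the tunnel through which the nascent chain leaves, all 6 proteins had negative values and 2 passed the test. Mrpl47, the counterpart of bacterial L29, had the widest SE of the 6. In the authors' deposited table its log2 fold change was -0.75 ± 0.31 (adjusted p = 0.048). Mrpl45, which in mammals ties the ribosome to the inner membrane, fell by 0.68 ± 0.21 in the authors' deposited table (adjusted p = 0.0058). Mrpl22, Mrpl23, Mrpl24 and Mrpl17 did not pass, with values between -0.62 and -0.28 in the authors' deposited table. The central protuberance, which contacts transfer RNAs and the small subunit, was mixed. Mrpl18, the counterpart of bacterial L18, averaged 85.8 counts in E1 and 162.5 counts in E0. It fell by 0.92 ± 0.20 in the authors' deposited table (adjusted p = 2.6e-05), and Mrpl38 was the other of its 6 members to fall. Mrpl27 and Mrpl40 lay on the other side of 0 without passing, at 0.21 ± 0.18 and 0.21 ± 0.23 in the authors' deposited table. These 3 groups of proteins were drawn up after the members' values had been seen.

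Elsewhere in the large subunit, Mrpl33 averaged 47.9 counts in E1 and 98.8 counts in E0. It was at -1.04 ± 0.26 in the authors' deposited table (adjusted p = 0.00039). Mrpl34 fell by 0.87 ± 0.32 in the authors' deposited table (adjusted p = 0.023). Both are counterparts of small bacterial proteins of the same number. Mrpl44, a mitochondria-specific protein with a fold like that of RNase III, fell by 0.79 ± 0.24 in the authors' deposited table (adjusted p = 0.0050). The one member that rose, Mrpl35, is the counterpart of bacterial L35. It averaged 239.9 counts in E1 and 155.1 counts in E0, a log2 fold change of 0.63 ± 0.16 in the authors' deposited table (adjusted p = 0.00063). With the trend of log2 fold change on transcript length and GC content removed, it was at 0.34 and did not pass (adjusted p = 0.092).

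In the small subunit, which reads the messenger RNA, 10 of 26 members fell in E1 and 0 rose in the authors' deposited table (DESeq2), with 14 lower and 0 higher at an unadjusted p below 0.05. Mrps26, a mitochondria-specific protein, had the lowest value of all 77 genes. It averaged 130.6 counts in E1 and 280.1 counts in E0, a log2 fold change of -1.10 ± 0.19 in the authors' deposited table (adjusted p = 1e-07). Mrps28, the mitochondrial relative of bacterial S1, was at -1.07 ± 0.36 in the authors' deposited table (adjusted p = 0.010), on means of only 20.9 counts in E1 and 43.9 counts in E0. Mrps35, another mitochondria-specific protein, averaged 34.3 counts in E1 and 71.7 counts in E0. It fell by 1.07 ± 0.29 in the authors' deposited table (adjusted p = 0.0010). Both thus rest on low counts, and with the trend on length and GC content removed Mrps28 was at -0.84 (adjusted p = 0.054). Mrpl34 was then at -0.66 (adjusted p = 0.11). Mrps5, the counterpart of bacterial S5 near the path of the messenger RNA, averaged 99.3 counts in E1 and 173.6 counts in E0. Its log2 fold change was -0.81 ± 0.21 in the authors' deposited table (adjusted p = 0.00072). Mrps16, in which human mutations impair oxidative phosphorylation, fell by 0.75 ± 0.26 in the authors' deposited table (adjusted p = 0.013). The other 14 members that fell had log2 fold changes between -0.75 and -0.46 in the authors' deposited table. In falling order of size these were Mrps31, Mrpl32, Mrpl45, Mrps2, Mrpl41, Mrpl11, Mrpl2, Mrpl20, Mrps23, Mrps9, Mrpl30, Mrps21, Mrpl55 and Mrpl38.

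**Figure D1:**
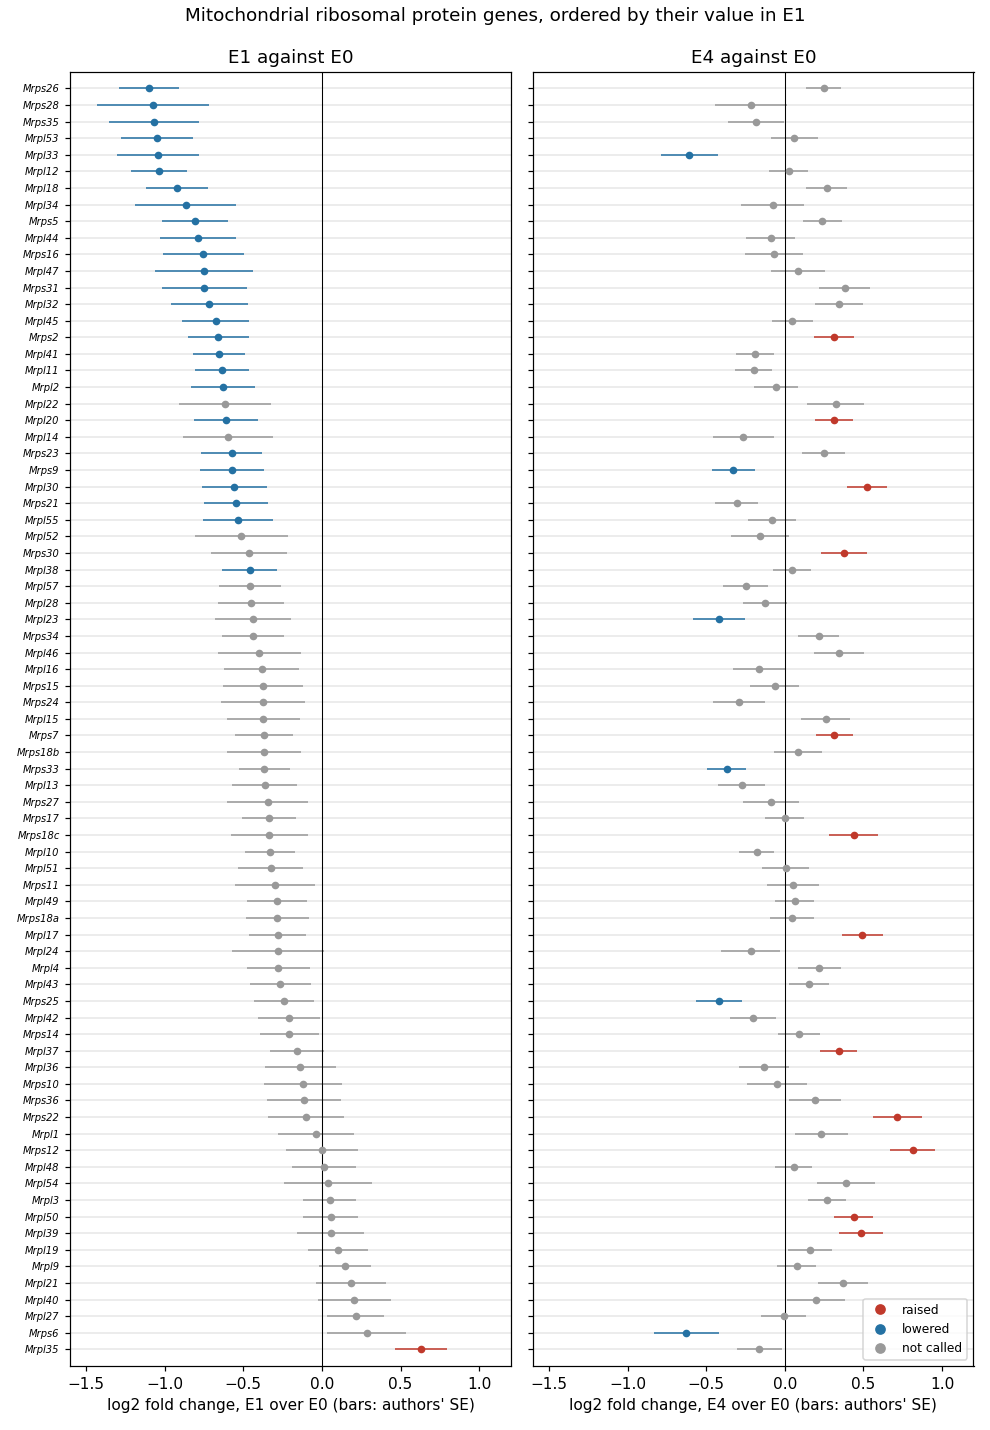
Log2 fold change over E0 (horizontal axis) of each of the 77 genes, E1 in the left panel and E4 in the right, with bars for the authors' SE and genes ordered by their value in E1. Red points rose, blue points fell and grey points did not pass the test at an adjusted p below 0.05: in E1 26 are blue and 1 is red, and in E4 12 are red and 6 are blue.

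In E4, the group as a whole was close to E0, with a few members on either side. In the authors' deposited table (DESeq2), 12 of the 77 rose and 6 fell at an adjusted p below 0.05, while 20.7% of the 14455 genes with an adjusted p rose, 18.3% fell and 39.0% changed either way. The 12 that rose are 15.6% of the members and the 6 that fell are 7.79%, both below the shares of all genes. The median log2 fold change was 0.05 over the 77 in the authors' deposited table for E4, against -0.01 for all genes with an adjusted p. Of the 77 values, 45 were positive, and the 59 that did not pass reached at most 0.39 in size.

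Mrps12, the counterpart of bacterial S12 in the decoding centre, rose most in E4. It averaged 340.0 counts in E4 and 193.4 counts in E0, a log2 fold change of 0.81 ± 0.14 in the authors' deposited table (adjusted p = 1e-07). In E1 the same gene averaged 99.8 counts, against 99.7 counts in E0. Mrps22, a mitochondria-specific protein mutated in human mitochondrial disease, averaged 250.9 counts in E4 and 152.7 counts in E0. Its log2 fold change was 0.72 ± 0.15 in the authors' deposited table (adjusted p = 2e-05). These were the only members above 0.6 in E4, and neither passed the test in E1.

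Among large-subunit proteins that rose in E4, Mrpl30 averaged 477.4 counts in E4 and 332.5 counts in E0. Its log2 fold change was 0.52 ± 0.13 in the authors' deposited table (adjusted p = 0.00017). Mrpl17, near the tunnel exit, rose by 0.49 ± 0.13 in the authors' deposited table (adjusted p = 0.00080). The mitochondria-specific Mrpl39 and Mrpl50 followed at 0.49 ± 0.14 and 0.44 ± 0.12 in the authors' deposited table (adjusted p = 0.0024 and 0.0018). Mrpl37 rose by 0.34 ± 0.12 in the authors' deposited table (adjusted p = 0.015). Mrps30, which despite its name sits in the large subunit, rose by 0.38 ± 0.15 in the authors' deposited table (adjusted p = 0.028), and with the trend on length and GC content removed it was at 0.32 (adjusted p = 0.076). Mrpl20, the counterpart of a bacterial protein needed early in assembly, rose by 0.31 ± 0.12 in the authors' deposited table (adjusted p = 0.028). In the small subunit, Mrps7 and Mrps2 rose by 0.31 each in the authors' deposited table (adjusted p = 0.023 and 0.039).

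Mouse has 3 paralogs of the bacterial protein S18, of which 1 passed the test in E4. Mrps18c averaged 220.3 counts in E4 and 162.7 counts in E0, and rose by 0.44 ± 0.15 in the authors' deposited table (adjusted p = 0.015). Mrps18b had 0.09 and Mrps18a, which sits in the large subunit, had 0.05 in the same column of the authors' deposited table, and neither passed (adjusted p = 0.71 and 0.84). In E1 the 3 paralogs were at -0.28 for Mrps18a, -0.37 for Mrps18b and -0.33 for Mrps18c in the authors' deposited table, and none passed. Differences between the paralogs were not tested.

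The members that fell in E4 included 4 of the small subunit. Mrps6 averaged 77.9 counts in E4 and 120.3 counts in E0, a log2 fold change of -0.63 ± 0.21 in the authors' deposited table (adjusted p = 0.0081). Mrps33 fell by 0.37 ± 0.12 in the authors' deposited table (adjusted p = 0.0088). Mrps25 fell by 0.42 ± 0.15 in the authors' deposited table (adjusted p = 0.013), and Mrps9 by 0.33 ± 0.14 (adjusted p = 0.046). Mrps6 and Mrps9 have bacterial counterparts, and the other two do not. In the large subunit, Mrpl33 averaged 123.1 counts in E4 and 187.6 counts in E0, and fell by 0.61 ± 0.18 in the authors' deposited table (adjusted p = 0.0029). Mrpl23, at the tunnel exit, fell by 0.42 ± 0.17 in the authors' deposited table (adjusted p = 0.033), and with the trend on length and GC content removed it was at -0.37 (adjusted p = 0.064). Mrps9 was then at -0.31 (adjusted p = 0.062).

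Both comparisons share the E0 libraries, so they are set side by side gene by gene. Of the 26 genes that fell in E1, 21 did not pass the test in E4, 3 rose there (Mrpl20, Mrpl30 and Mrps2) and 2 fell there too (Mrpl33 and Mrps9). Of the 12 that rose in E4, 9 had not passed in E1. The difference between E4 and E1 was tested for each gene from the deposited log2 fold changes and their SEs, with a normal p adjusted over the 12769 genes whose mean counts reached 10 in each of the tables. It was positive with an adjusted p below 0.05 for 25 members and negative for 2, while 17.7% of the 12769 genes were higher, 19.0% lower and 36.7% either. Its median was 0.42 over the members, against 0.01 over all genes in both tables. The normal test leaves out the correlation that shared E0 libraries bring.

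Mrps26 had the largest difference, at 1.35 ± 0.22 (log2, adjusted p = 1.6e-08), with 0.25 in E4 and -1.10 in E1 in the authors' deposited tables. Mrpl18 differed by 1.19 (adjusted p = 5.4e-06), Mrps31 by 1.13 (0.0016) and Mrpl53 by 1.11 (0.00033). Mrps31 is a mitochondria-specific protein of the small subunit. Mrpl30 differed by 1.08 (adjusted p = 5.8e-05), at 0.52 in E4 and -0.56 in E1 in the authors' deposited tables, each past the test. Mrpl32, which is matured by a mitochondrial protease before assembly, differed by 1.06 (adjusted p = 0.0013). On the other side, Mrps6 differed by -0.91 (adjusted p = 0.017), at -0.63 in E4 and 0.28 in E1 in the authors' deposited tables. Mrpl35 differed by -0.79 (adjusted p = 0.0014), at -0.16 in E4 and 0.63 in E1 in the authors' deposited tables. In the table for E4 the 3 members of highest mean count were Mrps26, Mrpl3 and Mrpl12. Mrpl3, the counterpart of bacterial L3, passed in neither comparison, at 0.27 in E4 and 0.05 in E1 in the authors' deposited tables.

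The lower values in E1 were spread over the classes of members. Of 50 large-subunit proteins, 16 fell in E1 and 1 rose, with a median of -0.38 in the authors' deposited table, and of 26 small-subunit proteins 10 fell, with a median of -0.37. Of 46 members with a bacterial counterpart, 17 fell, with a median of -0.37 in the authors' deposited table. Of 30 that are specific to mitochondria, 9 fell, also with a median of -0.37. In E4, 7 large-subunit members rose and 2 fell, and 5 small-subunit members rose and 4 fell in the authors' deposited table. Mrps36, now known as a subunit of the 2-oxoglutarate dehydrogenase complex, was left out of these classes and passed in neither comparison. Differences between classes were not tested.

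**Figure D2:**
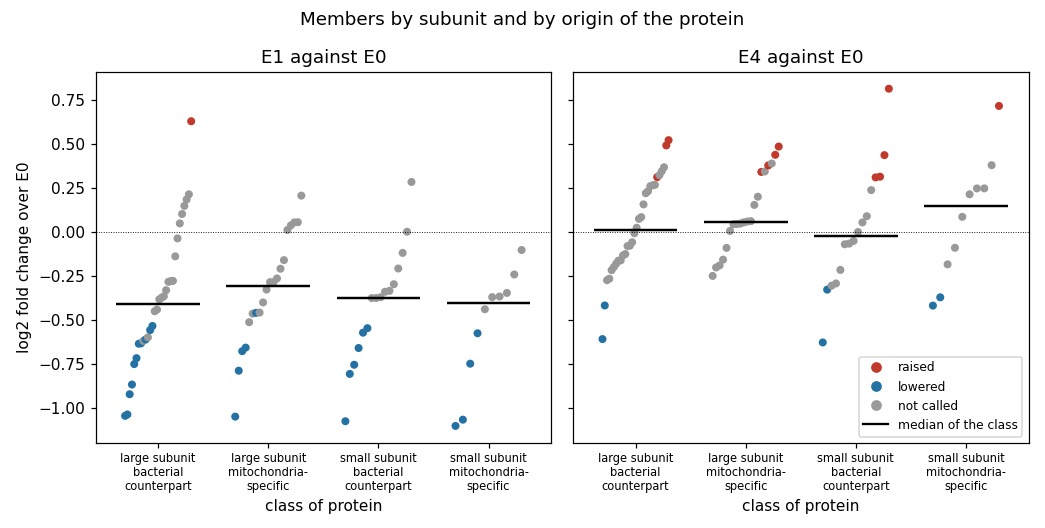
Log2 fold change over E0 (vertical axis) of 76 members in 4 classes by subunit and by bacterial counterpart, E1 in the left panel and E4 in the right, with 1 point per gene coloured by its call and a line at each class's median. The class medians lie between -0.41 and -0.31 in E1 and between -0.02 and 0.15 in E4.

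Short transcripts were lower in E1 over the whole table, and members are short, with a median transcript of 1047 bases, against 2204 bases for all genes with an adjusted p in E1. Their median GC content was 50.5%, against 50.9%. Within each of 6 length ranges the members' median in E1 lay below that of all genes in the authors' deposited table. Between 600 and 1000 bases it was -0.37 for 31 members, against -0.14 for 2103 genes, and between 1500 and 2500 bases it was -0.37 for 11 members, against 0.01 for 3928 genes. With the trend on length and GC content removed from all genes, the members' median was -0.30 in E1 and 0.08 in E4. After this step 23 members fell in E1, 18 of them among the 26, and 66 of the 77 values were negative.

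**Figure D3:**
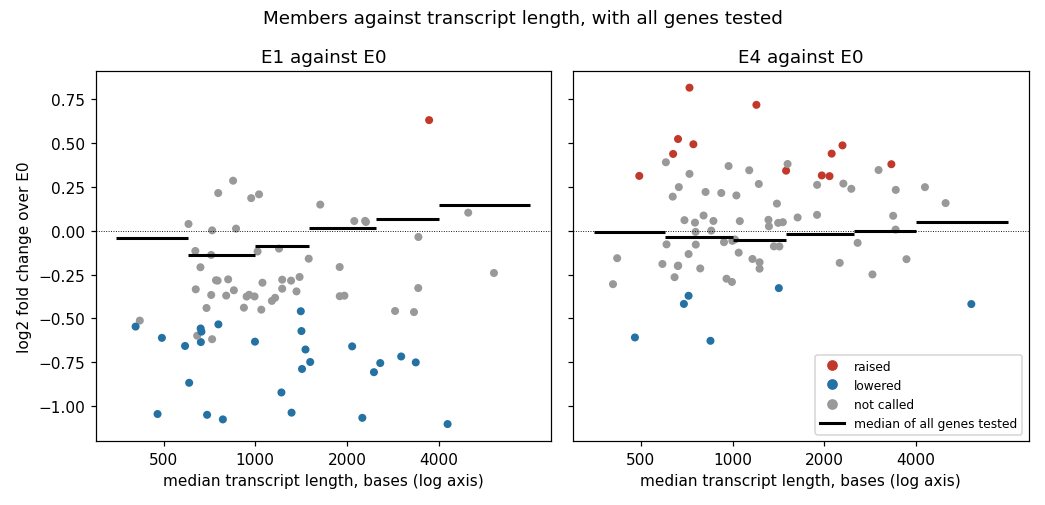
Log2 fold change over E0 (vertical axis) against the median length of a gene's protein-coding transcripts in bases (log axis), E1 left and E4 right, with 1 point per member and black lines for the median of all genes with an adjusted p in each length range. In E1 the medians of all genes run between -0.14 and 0.15, and the members' medians in the same ranges between -0.61 and -0.24.

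Other genes of mitochondrial gene expression were read from lists. One list held 7 genes for proteins of the mitoribosome, or bound to it, whose symbols lie outside the naming pattern. Of these, 4 fell in E1 in the authors' deposited table: Aurkaip1 (-0.76), Chchd1 (-0.76), Ict1 (-0.75) and Oxa1l (-0.53). Oxa1l binds the ribosome and is not a ribosomal protein itself. The median of the 7 was -0.58 in E1 and 0.08 in E4. In E4 Dap3, a small-subunit protein that binds GTP, fell by 0.41 and Ptcd3, a small-subunit protein that binds RNA, rose by 0.33 in the authors' deposited table. Of 13 translation factors, 2 fell in E1 in the authors' deposited table, Tufm (-0.57), the elongation factor that delivers aminoacyl-tRNA, and Taco1 (-1.01), which promotes translation of cytochrome oxidase subunit I. Guf1 (0.52) and Mtfmt (0.67), the enzyme that formylates the initiator methionine, rose in the authors' deposited table. These are 15.4% of the list each way, against 15.0% of all genes with an adjusted p that fell in E1 and 20.6% that rose. In E4 0 of the 13 passed in the authors' deposited table (DESeq2), and the count at an unadjusted p below 0.05 was also 0.

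Of 27 assembly and rRNA modification factors, 7 fell and 1 rose in E1, with a median of -0.43 in the authors' deposited table. Ybey, an endoribonuclease, rose by 2.18 ± 0.23 there, while Rpusd3 (-1.12), Noa1 (-0.84) and Ddx28 (-0.91) fell in the authors' deposited table. In E4 4 of the 27 fell and 2 rose, with Mtg1 at -0.93, Rbfa at -0.79, Rpusd3 at -0.62 and Lrpprc, which stabilises mitochondrial messenger RNAs, at 0.47 in the authors' deposited table. Of 17 mitochondrial aminoacyl-tRNA synthetases, 3 fell and 1 rose in E1, and 6 fell and 2 rose in E4. Lars2 was at 2.09, Pars2 at -1.71 and Fars2 at -0.90 in the E1 values of the authors' deposited table. In the E4 values of the authors' deposited table Vars2 was at -0.89, Aars2 at 0.71, Fars2 at -0.86 and Iars2 at -0.57. In E1 17.6% of the synthetases fell and 5.88% rose, against 15.0% and 20.6% of all genes with an adjusted p. The shares in E4 were 35.3% and 11.8%, against 18.3% and 20.7%. The median of the synthetases was -0.12 in E1 and -0.14 in E4.

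Of 11 genes of mitochondrial DNA transcription and replication, 2 fell in E1 in the authors' deposited table (18.2%, against 15.0% of all genes with an adjusted p). These were Tfam (-0.74), which packages the DNA and starts transcription, and Peo1 (-0.97), the replicative helicase. In E4 Tfb2m (0.52) and Polg (0.41) rose and Top1mt (-0.91) fell in the authors' deposited table. Of 10 nuclear regulators of these genes, 5 rose and 0 fell in E1 (DESeq2), with 6 higher and 0 lower at an unadjusted p below 0.05. Among them were Myc (1.51), Gabpb2 (0.88), the coactivator Ppargc1a (0.67) and Gabpa (0.52) in the authors' deposited table. In E4 5 rose and 1 fell, with Gabpb1 at 1.18 ± 0.14, Nrf1 at 0.83 ± 0.15, Yy1 at 0.50 ± 0.11 and Pprc1 at 0.48 ± 0.13 in the authors' deposited table. The median of the 10 regulators was 0.47 in E1 and 0.45 in E4, and that of the members -0.37 and 0.05.

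Of 80 nuclear genes of the respiratory chain and ATP synthase with an adjusted p, 38 fell and 0 rose in E1, with a median of -0.30 in the authors' deposited table (DESeq2). At an unadjusted p below 0.05, 43 of them were lower and 2 higher. Of 75 genes of cytosolic ribosomal proteins, 66 fell and 0 rose in E1, with a median of -0.62 in the authors' deposited table (DESeq2). At an unadjusted p below 0.05, 69 of them were lower and 0 higher. In E4 the cytosolic set had 16 genes that rose and 1 that fell (median 0.12), and the respiratory chain set 7 that rose and 13 that fell (median -0.06) in the authors' deposited table. The share that fell in E1 was 33.8% for the members, 47.5% for the respiratory chain set and 88.0% for the cytosolic set. In the test of E4 minus E1, 25 of the 77 members were higher (32.5%). So were 30 of 76 genes of the respiratory chain set (39.5%) and 66 of 73 of the cytosolic set (90.4%), and 0 genes of either set were lower. None of these shares was tested against another.

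**Figure D4:**
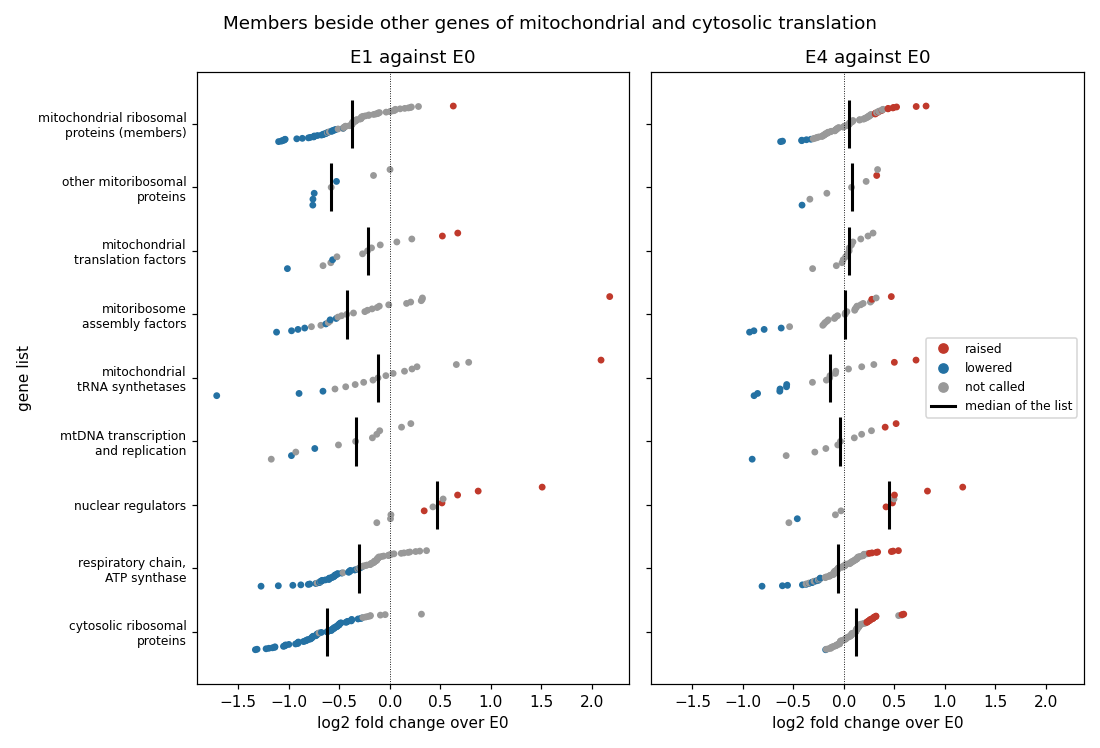
Log2 fold change over E0 (horizontal axis) of the 77 members and of 8 other gene lists (rows), E1 left and E4 right, with 1 point per gene coloured by its call and a black bar at each list's median. In E1 the medians of the members (-0.37), the respiratory chain (-0.30) and the cytosolic ribosomal proteins (-0.62) lie left of 0 and that of the nuclear regulators (0.47) right of it; in E4 the first 3 are 0.05, -0.06 and 0.12.

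The promoter motifs were also read against the calls. Of the members that fell in E1 23 had a promoter, with the NRF1 motif in 8, the ETS motif in 8 and the YY1 motif in 1. Of 44 with a promoter that did not pass, 6 had the NRF1 motif, 17 the ETS motif and 10 the YY1 motif. These splits were not tested. A divergent neighbour was common: 18 of the 77 (23.4%) had a protein-coding gene starting head to head within 1000 bases. Among 14049 genes with an adjusted p in E1 the share was 9.26%. Of the 18 partners, 6 fell and 3 rose in E1, and 2 fell and 6 rose in E4 in the authors' deposited tables. Members and partners often differed in their calls: of 5 members of such pairs that fell in E1, the partner fell in 2, and of 5 that rose in E4, the partner rose in 1. Mrpl32 and the proteasome gene Psma2 start 75 bases apart, and Psma2 fell by 0.44 in E1 and rose by 0.41 in E4 in the authors' deposited tables. Mrpl50 and the zinc finger gene Zfp189 start 83 bases apart, and Zfp189 rose by 1.40 in E1 and by 0.99 in E4 in the authors' deposited tables. Mrpl50 was at 0.05 in E1 and 0.44 in E4 in the same tables. Psma2 and Zfp189 were chosen for naming after their values were seen.

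Matched by symbol, exons of 22 members overlap those of another listed gene. Mrpl43 is not among the 22, but it overlaps Twnk, which is listed under its older symbol Peo1. Since the strand setting of the counting is not given, reads of such a pair cannot be assigned with certainty. Among members that passed the test in E1 or E4 these are Mrps26, Mrpl18, Mrpl44, Mrpl47, Mrps6, Mrps25 and Mrps7. The other 55 members held 22 of the 26 that fell in E1, 11 of the 12 that rose in E4 and 4 of the 6 that fell in E4. Those 55 are not free of overlap. With annotated genes outside the tables included, exons of 32 members overlap another gene. Among members that passed the test, this adds Mrpl12, Mrpl53, Mrpl33, Mrps18c and Mrps30. Mrpl23, Mrpl48 and Mrps36 have annotated pseudogenes that carry their names, so their counts are less certain.

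Markers of other cell types were read in the same way as those of granule neurons. Of 5 interneuron markers 4 rose in E1 in the authors' deposited table, with a summed mean of 4293 counts in E1 and 2545 counts in E0. Of 5 astrocyte markers 3 fell in E1, with a median of -0.44 in the authors' deposited table and summed means of 26313 counts in E1 and 27616 counts in E0. Of 5 microglial markers 1 fell in E1 in the authors' deposited table, with sums of 1109 counts in E1 and 1482 counts in E0. Of 5 oligodendrocyte markers, and likewise of 5 pyramidal neuron markers, 1 rose and 1 fell in E1 in the authors' deposited table. Oligodendrocyte markers summed to 5620 counts in E1 and 5224 counts in E0, and markers of CA1 and CA3 pyramidal neurons to 519 counts in E1 and 457 counts in E0. In E4 2 granule neuron markers rose and 3 fell in the authors' deposited table, with a summed mean of 11789 counts in E4 and 14368 counts in E0. No marker was listed at 0. The part of these other markers, and of the lower depth of E1 libraries, in the members' values was not tested.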

How the data were processed

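Total RNA of the dentate gyrus was sequenced from 9 mice, and groups were taken from the sample titles. Reads were aligned with TopHat2 to mouse build mm9 and compared with DESeq2, per the submitters' processing notes, without versions. Which counter, annotation and strand setting were used is not given in the sources used here. Both of the authors' comparison tables were analysed, each set against E0. The deposited mean signal is a count divided by size factors and averaged over a comparison's libraries, per the file headers. The deposited log2 fold changes and SEs are the authors' estimates and look shrunken, since genes averaging under 1 count had a median absolute value of 0.142 in E1 and 0.106 in E4. The deposited score is the log2 fold change over its SE and the deposited p-value its two-sided normal p, within 9.8e-08 and 5.0e-08. Their adjusted p-values match a Benjamini-Hochberg adjustment within 3.6e-07.

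Values of single mice are not in these tables, so no count test, SD or left-out library was possible, and each value carries the authors' SE. That SE is the one the authors' model gave for a fold change with 3 mice a group, and not a spread measured between the mice. A gene was called at an adjusted p below 0.05. Group means were worked back from mean count and fold change, and depth from the values that 1 read takes. The E4 minus E1 test divided the difference by the root of the summed squared SEs, and was run on simulated data. There the values of both comparisons were drawn independently, so the simulation could not show the effect of the shared E0 libraries. Transcript length and GC content came from GENCODE vM21 (GRCm38) and promoters from RefSeq (GRCm38.p6). Alternatives were other thresholds, other gene sets for the adjustment, re-centring, and removal of a trend on length and GC content. Python 3.11.15, pandas 2.3.3 and scipy 1.17.1 were used.

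The members, lists, motifs and tests were chosen with earlier results of these data known. The stalk, tunnel exit and central protuberance groups were drawn up, and Mrpl47 and Mrpl55 moved to the members with a bacterial counterpart, after the values were seen. Named members are the 12 with the largest log2 fold change of each called direction, the 6 furthest each way in E4 minus E1, the 3 of highest mean count in the table for E4 and the Mrps18 paralogs. From each other list the 4 with the smallest adjusted p per comparison were named, except 1 that is not reported here. A spreadsheet had made dates of 27 symbols of the E1 table, and none of them is a member.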

Additional observations from a re-analysis of the deposited data

Results flagged for a closer look

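For 27 members the change in E4 and the change in E1, both against E0, differed with an adjusted p below 0.05 in the normal test of the difference, which treats the shared E0 libraries as independent. Of these, 25 were higher in E4 and 2 were lower, 15 had fallen in E1, 10 had risen in E4 and 3 had passed in neither comparison (Mrps34, Mrpl46 and Mrpl22). Over all 12769 genes in this test 36.7% differed, so 27 of 77 members is an ordinary number. By direction, 17.7% of those genes were higher and 19.0% lower.

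In the small subunit the log2 difference, E4 minus E1, was 1.35 for Mrps26, 1.13 for Mrps31, 1.04 for Mrps5, 0.97 for Mrps2, 0.88 for Mrps35, 0.82 for Mrps23, 0.82 for Mrps22, 0.81 for Mrps12, 0.77 for Mrps18c, 0.68 for Mrps7 and 0.65 for Mrps34. It was -0.91 for Mrps6.

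In the large subunit it was 1.19 for Mrpl18, 1.11 for Mrpl53, 1.08 for Mrpl30, 1.06 for Mrpl32, 1.06 for Mrpl12, 0.94 for Mrpl22, 0.92 for Mrpl20 and 0.84 for Mrps30, whose product sits in this subunit. Smaller log2 differences were 0.77 for Mrpl17, 0.74 for Mrpl46, 0.72 for Mrpl45, 0.70 for Mrpl44, 0.50 for Mrpl38 and 0.50 for Mrpl37. It was -0.79 for Mrpl35.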

How the results depend on the processing

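No paired analysis was possible because the tables hold no value per mouse, and for the same reason no library could be left out. Of 32 counts of members under alternatives, 27 stayed within 1.5 times the reported count. At an adjusted p below 0.01, 14 members were lowered in E1 (26 as reported), and in E4 6 were raised (12 as reported) and 3 lowered (6 as reported). At an adjusted p below 0.1, 20 were raised in E4. With the trend on transcript length and GC content removed, 0 were raised in E1, since Mrpl35 was then at 0.34 (adjusted p = 0.092), and Mrpl3 changed sign, reaching -0.033 (adjusted p = 0.91) from 0.05 as reported. The number lowered in E1 was 23 with this trend removed, 24 after re-centring, 24 with the adjustment over every gene with a p, and 33 at an adjusted p below 0.1. The difference E4 minus E1 was positive for 21 to 26 members and negative for 2 under its alternatives. Of 272 values of named members under alternatives, 247 kept their direction and side of the threshold, 22 lost their call, 2 gained one and 1 changed sign. E1 libraries were the shallowest. The smallest change that passed among members was 0.46 on the log2 scale in E1, against 0.31 in E4, and the part of depth in this was not tested.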

Other observations

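Among the genes that start head to head with a member within 1000 bases, several changed more than the member did, and these were chosen after their values were seen. Ska3, a spindle and kinetochore gene 49 bases from Mrpl57, rose by 3.16 on the log2 scale in the authors' deposited table for E1, while Mrpl57 did not pass there. Eme2, 29 bases from Mrps34, rose by 0.88 in the authors' deposited table for E4, where Mrps34 did not pass. Ptcd2, 81 bases from Mrps27, fell by 0.97 in the authors' deposited table for E1, where Mrps27 did not pass. Ncapd2, a condensin gene 100 bases from Mrpl51, fell by 0.79 in E1 and by 0.55 in E4 in the authors' deposited tables, and Mrpl51 passed in neither.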
